A study of Mus musculus with 4 samples.

Results

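The genes described here are 10 subunits of the Polycomb repressive complexes, Ezh1, Ezh2, Eed, Suz12, Jarid2, Ring1, Rnf2, Bmi1, Cbx7 and Phc1. They were chosen by symbol from the 22718 genes of the deposited expression files, and all 10 were found. PolyA RNA of mouse embryonic stem (ES) cells was sequenced from a wild type line and from the Prep1 -/- line KO2, both of the C57BL/6 strain by their labels and both grown on gelatin with leukemia inhibitory factor. Each genotype has 1 library, so the genotype cannot be told apart from the line or the library, and no difference below has a replicate check. ChIP-seq with an anti-Prep1 antibody and its input DNA came from wild type ES cells. The protocol names these as R1 cells while their label gives C57BL/6, and the methods state that the antibody also binds Prep2 weakly.

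Polycomb proteins keep developmental genes silent in cells that should not express them. Polycomb repressive complex 2 (PRC2) methylates a lysine in the tail of histone H3, and Polycomb repressive complex 1 (PRC1) ubiquitinates histone H2A. In ES cells both sit at the promoters of genes that drive differentiation, and loss of PRC2 leaves the cells able to self-renew but impaired in differentiation. Prep1, encoded by Pknox1, is a homeodomain transcription factor of the TALE family that binds DNA as a dimer with Pbx proteins.

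The wild type library held 29596294 reads over all genes and the library labelled Prep1 -/- held 25717811. The methods state fewer reads per sample than these sums, and the difference is not explained. Intervals below take the deposited counts as given and would be wider with fewer reads. Pknox1 itself had 505 and 332 reads (7.85 and 5.78 RPKM, reads scaled to gene length in kilobases and to library size), a KO/WT ratio of 0.736. The gene that defines the groups thus kept reads in the library labelled Prep1 -/-, the part of the gene that was deleted is not given in the sources used here, and every direction below rests on that label. Several defining genes of ES cells were abundant in both libraries, with Pou5f1 at 323.4 and 359.5 RPKM, Nanog at 66.4 and 91.0 RPKM and Sox2 at 101.5 and 133.8 RPKM. Of the 10 ES cell markers listed, the least abundant was Zfp42, at 11.7 and 9.35 RPKM with a ratio of 0.801. Over the 13218 genes whose RPKM exceeded 1 in each library the median log2 KO/WT ratio was -0.07, and the middle 90% of genes lay between -0.72 and 0.57. A change of RNA per cell and a change in the mix of cells cannot be told apart in these bulk libraries.

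Prep1 peaks were first placed around the 10 genes, to ask which of them lie at sites that Prep1 occupies in ES cells. Of 3902 deposited peaks, 6 were associated with 4 of the 10 genes, that is, they lay at the start of the gene (500 bases before to 100 bases after it), inside it or within 20 kb of the start. These 4 genes were Suz12, Jarid2, Cbx7 and Phc1. Over all 21446 genes found in the annotation, 21.0% had an associated peak, and among the expressed genes (RPKM over 1 in at least 1 library) the share was 26.1%. No peak lay within 50 kb of Ezh2, Eed or Bmi1. The peaks near Ezh1, Ring1 and Rnf2 lay beyond 20 kb of their starts, and the stronger of the pair near Ezh1 was 132 bases from the start of another gene, Plekhh3.

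Suz12, the scaffold subunit of PRC2, carried the only peak in the start window of the 10 genes, where 7.60% of all genes and 10.5% of the expressed ones had a peak. The peak covered 730 bases at mm9 chr11:79806135-79806864, its centre lay at -109 bases from the start, and its fold enrichment over input was 45. That value was higher than in 71.0% of all peaks, whose median was 21. The strongest of the 6 peaks was at Jarid2, the DNA-binding accessory subunit of PRC2, with a fold enrichment of 69 at chr13:44825684-44826560. Its centre lay 1279 bases inside the gene as annotated, but -21 bases from the nearest annotated transcript start, and 9 of the 17 annotated Jarid2 transcript starts had the peak in their start window. Counting any transcript start, 2 of the 10 genes had a start peak, against 8.59% of all genes and 11.8% of the expressed ones. A weaker peak with a fold enrichment of 12 lay at -13945 bases from the Jarid2 start.

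Cbx7, a chromodomain subunit of PRC1, had a peak with a fold enrichment of 39 at chr15:79769427-79770095, in its interior and 31788 bases from the gene start. Its centre lay at -5432 bases from the nearest annotated Cbx7 transcript start. Phc1, a polyhomeotic subunit that lets PRC1 complexes polymerise, had a pair of upstream peaks. The nearer one, at chr6:122294281-122295000, was centred at -4061 bases with a fold enrichment of 28, and the farther one at -6928 bases had a fold enrichment of 14. The 6 peaks thus ran from 12 to 69, while all peaks ran from 4 to 336.

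**Figure D1:**
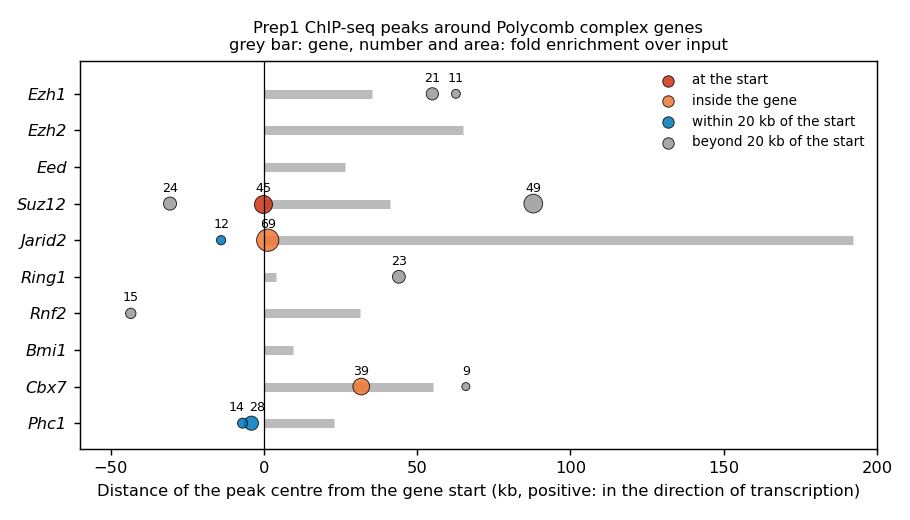
Prep1 ChIP-seq peaks around the 10 Polycomb complex genes, with the distance of each peak centre from the gene start in kb on the x axis, 1 gene per row, the gene body as a grey bar and the fold enrichment over input as the number and the area of each point. Only the Suz12 peak (45) and the Jarid2 peak (69) lie at a transcript start of the gene in their row, and the rows of Ezh2, Eed and Bmi1 hold no peak.

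The sites below are shown because they are what the peaks at these 4 genes hold of the Prep1 decamer, whose consensus is TGA, any base, TGACAG. Both strands were searched with at most 1 mismatch outside the free position, and the best match in 5 of the 6 associated peaks is printed 5′ to 3′ on its own strand with the decamer in capitals (mm9):
Suz12 start, chr11:79806454-79806523, plus strand: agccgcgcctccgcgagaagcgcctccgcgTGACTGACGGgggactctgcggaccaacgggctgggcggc
Jarid2 start, chr13:44826040-44826109, plus strand: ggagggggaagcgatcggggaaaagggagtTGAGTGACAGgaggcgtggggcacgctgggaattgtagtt
Jarid2 upstream, chr13:44810782-44810851, plus strand: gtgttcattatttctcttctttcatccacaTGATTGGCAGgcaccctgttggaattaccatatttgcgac
Cbx7 interior, chr15:79769692-79769761, plus strand: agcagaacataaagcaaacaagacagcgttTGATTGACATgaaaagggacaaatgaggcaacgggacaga
Phc1 upstream, chr6:122294608-122294677, minus strand: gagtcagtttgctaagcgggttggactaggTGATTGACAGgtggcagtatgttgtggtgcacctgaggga

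The Jarid2 start site and the Phc1 site held the decamer exactly. With positions counted from 1 at the 5′ end of the decamer and the consensus base first, the Suz12 site differed by A9G, the upstream Jarid2 site by A7G and the Cbx7 site by G10T. All 5 sites lay near the middle of their peaks, at -11, -48, -82, -35 and 2 bases from the centre in the order printed. The Suz12 site was intergenic at -120 bases from the gene start, the Jarid2 start site and the Cbx7 site were intronic in their own genes, and the upstream Jarid2 and Phc1 sites were intergenic. The farther Phc1 peak, not printed, held a pair of sites with 1 mismatch each, A3T and A7C, at -163 and 77 bases from its centre. A decamer with at most 1 mismatch was thus present in 6 of 6 associated peaks, and 63.4% of all 3902 peaks held one. An exact decamer was present in 2 of the 6, against 24.3% of all peaks. In the start windows themselves, Suz12 and Ring1 held 1 decamer with 1 mismatch each and the other 8 genes held none, where 16.1% of the 21446 start windows held at least 1.

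The levels of the 10 genes were next compared within each library on the RPKM scale, which divides by gene length. Phc1 was the most abundant of them in both libraries and Bmi1 the least, and they spanned from 1.17 to 281.5 RPKM in wild type. In wild type the order was Phc1, Cbx7, Eed, Jarid2, Ezh2, Rnf2, Suz12, Ezh1, Ring1 and Bmi1. Eed and Jarid2, and Ezh1 and Ring1, were neighbours whose exact 95% Poisson intervals overlapped, so their order is not given by these counts. In the library labelled Prep1 -/- Jarid2 stood above Eed, Eed and Ezh2 overlapped, and Ring1 and Ezh1 overlapped. Phc1 lay above 98.3% of expressed genes in wild type, Cbx7 above 96.5%, Eed above 90.6% and Jarid2 above 90.1%, while Bmi1 lay above 2.79%. When reads were divided by the union of annotated exons in place of the authors' gene length, Cbx7 (9551 and 7811 reads per kb) stood above Phc1 (5910 and 6659 reads per kb). The order on that scale was the same in both libraries, Cbx7, Phc1, Eed, Jarid2, Rnf2, Ezh2, Suz12, Ezh1, Ring1 and Bmi1. In the library labelled Prep1 -/- it put Eed (2396 reads per kb) above Jarid2 (1663) and apart from Ezh2 (805.2), and Ezh1 (231.5) above Ring1 (113.2), so the positions among these genes depend on the gene length used.

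**Figure D2:**
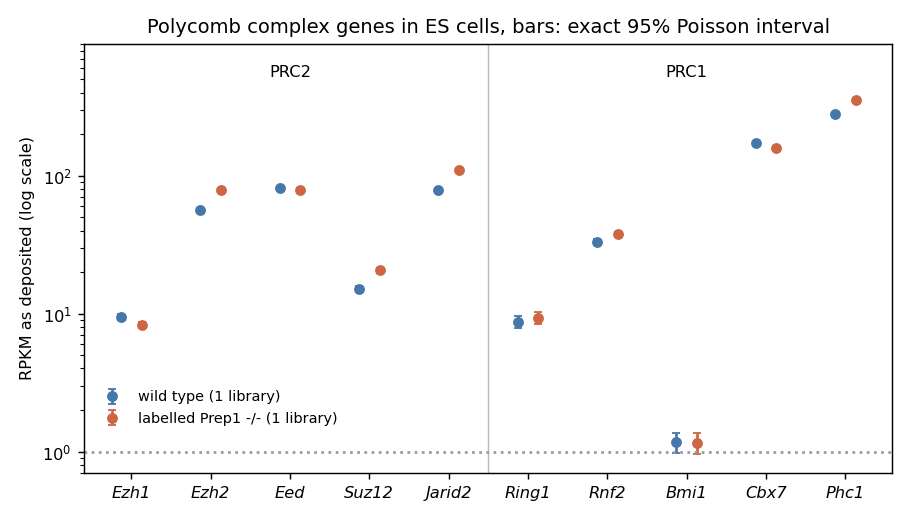
RPKM of the 10 Polycomb complex genes on a log axis in the wild type library (blue) and in the library labelled Prep1 -/- (orange), with exact 95% Poisson intervals that cover counting error only. Phc1 (281.5 and 354.6) and Cbx7 (173.0 and 158.2) lie highest, Bmi1 (1.17 and 1.15) lies near the dotted line at RPKM 1, and the intervals of the libraries overlap for Eed, Ring1 and Bmi1 and are apart for the other 7 genes.

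The comparison of the libraries asked whether the Polycomb genes themselves differ in RNA level when Prep1 is absent. The ratio thresholds were those of the study, which applied them to genes with RPKM over 1. The RPKM filter was set here on the library where the gene is more abundant, with lower meaning a KO/WT ratio below 0.7 at a wild type RPKM over 1, and higher meaning a ratio above 1.5 at an RPKM over 1 in the library labelled Prep1 -/-. Of the 10 genes, 0 were lower and 0 were higher, where 13.3% and 6.91% of the 14254 expressed genes were. Among genes with at least 250 reads over both libraries, as all 10 have, the shares were 9.55% and 3.29%. Their median ratio was 1.11 (log2 0.14), their ratios ran from 0.874 to 1.41, and 6 of 10 lay above 1 against 41.4% of the expressed genes. Exact 95% binomial intervals of the ratio, which cover counting error only, lay above 1 for 5 genes (Ezh2, Suz12, Jarid2, Rnf2 and Phc1), below 1 for 2 (Ezh1 and Cbx7) and on both sides for 3 (Eed, Ring1 and Bmi1). Such intervals lay above 1 for 20.7% of the expressed genes and below 1 for 36.3%, and for 23.4% and 41.6% of those with at least 250 reads, so an interval apart from 1 was common at this depth and says nothing of the spread between cultures.

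Within PRC2, Jarid2, which helps the complex find its targets, had the highest ratio of the 10. Its reads numbered 12821 (78.4 RPKM) in wild type against 16159 (110.4 RPKM) in the library labelled Prep1 -/-, a ratio of 1.41 with an interval of 1.38 to 1.44. Ezh2, the main methyltransferase subunit of dividing cells, had 4011 and 4990 reads (56.4 and 78.5 RPKM) and a ratio of 1.39 (1.33 to 1.45). Both were higher in the library labelled Prep1 -/-, and their ratios exceeded those of 93.9% and 93.5% of the 13218 genes. Suz12 went the same way, with 1693 and 2054 reads (15.1 and 20.5 RPKM) and a ratio of 1.36 (1.27 to 1.45), higher than 92.7% of genes. No other member of the 10 had a ratio above 1.3.

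Among the 10, the other core subunits of PRC2 had ratios below 1 on the RPKM scale. Ezh1, the paralogue of Ezh2 that is associated with non-dividing cells, had 2203 and 1722 reads (9.45 and 8.26 RPKM) and a ratio of 0.874 (0.820 to 0.931), the lowest of the 10. Eed, which binds methylated histone H3 and stimulates the enzyme, had 6112 and 5314 reads (81.5 and 79.3 RPKM) and a ratio of 0.972 (0.937 to 1.01). The median ratio of the 5 PRC2 genes was 1.36, with 3 intervals above 1 and 1 below. Ezh2 and Suz12 share 174 and 178 exon bases, respectively, with a predicted gene on the opposite strand (Gm17629 and Gm16706), which is not among the genes of the files. The labels do not state a strand setting for counting, but the paper describes the transcripts detected as coming from the sense strand.

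Within PRC1, the catalytic pair is Ring1 and Rnf2, the ligases that ubiquitinate histone H2A. Rnf2 had 2733 and 2787 reads (33.2 and 37.9 RPKM) and a ratio of 1.14 (1.08 to 1.20). Ring1 had 383 and 367 reads (8.68 and 9.30 RPKM) and a ratio of 1.07 (0.926 to 1.24), so no difference could be detected with these read numbers. Ring1 lies 2.41 Mb from Pknox1 on chromosome 17, and the median ratio of the genes on that chromosome was 0.933. Bmi1, a Pcgf partner of the ligases, had the fewest reads of the 10, 153 and 135 (1.17 and 1.15 RPKM), and its ratio of 0.987 had the widest interval, 0.777 to 1.25.

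The chromodomain and polyhomeotic subunits were the deepest of the 10 in reads and had ratios on opposite sides of 1. Phc1 had 31305 and 35274 reads (281.5 and 354.6 RPKM) and a ratio of 1.26 (1.24 to 1.28), higher than 89.2% of genes. Cbx7, which reads the methylated lysine that PRC2 leaves, had 36200 and 29605 reads (173.0 and 158.2 RPKM) and a ratio of 0.914 (0.901 to 0.929). That ratio was higher than in 41.7% of genes, whose median ratio was 0.955. With its chromosome median of 0.929 divided out, the Cbx7 ratio was 0.985. Over the 5 PRC1 genes the median ratio was 1.07, with 2 intervals above 1 and 1 below. The 4 genes with an associated Prep1 peak had ratios of 1.41 (Jarid2), 1.36 (Suz12), 1.26 (Phc1) and 0.914 (Cbx7). Of the 6 without one, Ezh2 had 1.39 and the other 5 ran from 0.874 to 1.14, and a relation between peaks and ratios was not tested.

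The direction of 2 of the 10 depended on the scaling of the libraries. Eed and Bmi1, both with intervals across 1, had ratios just below 1 on the RPKM scale but of 1.00 to 1.05 (Eed) and 1.02 to 1.05 (Bmi1) when scaled by summed reads, by the median of all genes, by TMM or by chromosome medians. Ezh1 and Cbx7 stayed below 1 and the 6 genes above 1 stayed above it under those 4 scalings, and no gene of the 10 passed either threshold under any. The closest to a threshold was Jarid2 at 1.48 under TMM.

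**Figure D3:**
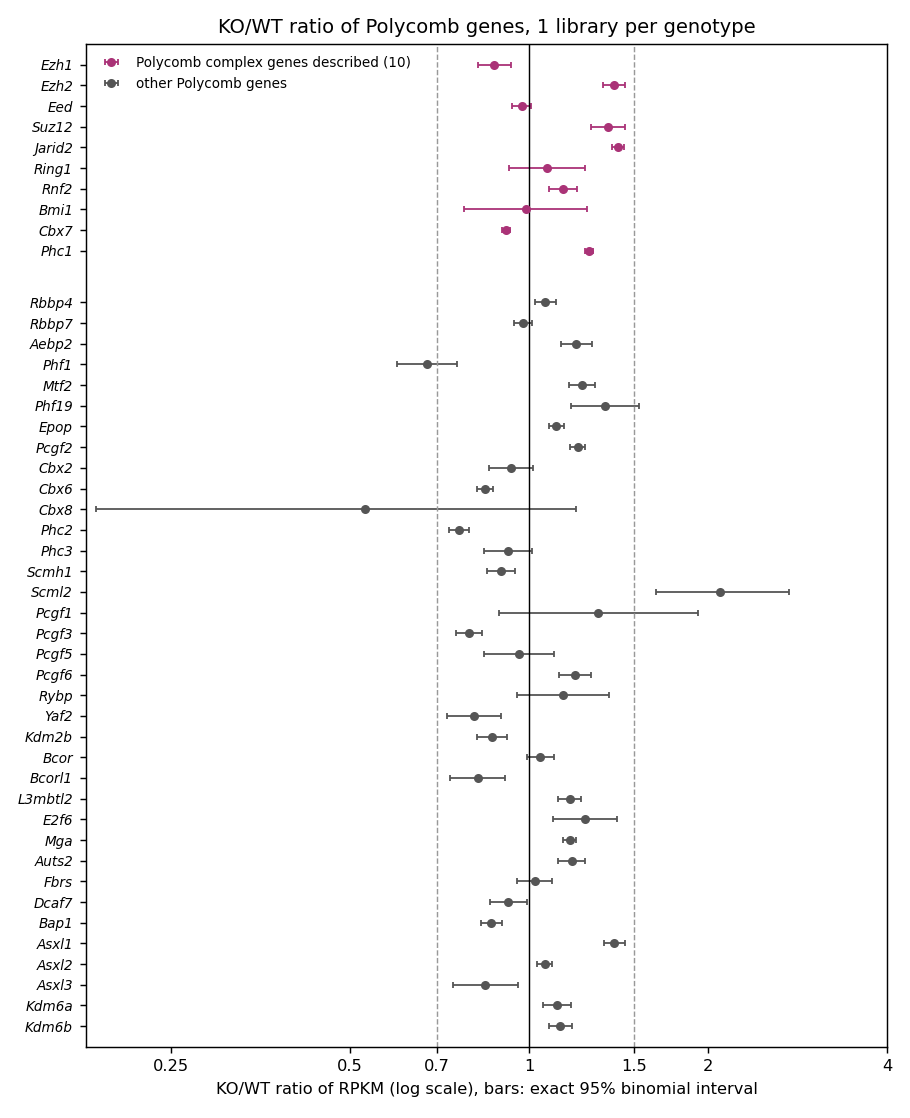
KO/WT ratios of RPKM on a log axis with exact 95% binomial intervals for the 10 Polycomb complex genes (purple) and other Polycomb genes (grey), 1 library per genotype, with dashed lines at the thresholds of 0.7 and 1.5. All 10 lie between the dashed lines, with Jarid2, Ezh2 and Suz12 (1.41, 1.39 and 1.36) farthest to the right, and Scml2 past the upper line has RPKM under 1 in both libraries.

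Because several subunits exist as alternatives within a complex, the balance of 7 pairs was compared as a ratio of reads within each library, which does not depend on how the libraries are scaled. Ezh2 had 1.82 reads per read of Ezh1 in wild type and 2.90 in the library labelled Prep1 -/-, a shift of 1.59-fold (exact 95% interval 1.47 to 1.72). In RPKM, Ezh2 made up 85.7% of the sum of the pair in wild type and 90.5% in the library labelled Prep1 -/-. Per kb of exon union, Ezh2 had 647.2 and 805.2 reads against 296.1 and 231.5 for Ezh1. Its share is smaller on that scale and so depends on the gene length used. Phc1 had 4.63 and 7.66 reads per read of its paralogue Phc2, a shift of 1.65-fold (1.59 to 1.72). The KO/WT ratios of that pair lay on opposite sides of 1, and Phc2 had 6759 and 4608 reads with a ratio of 0.762. Between subunits of the PRC2 core, the reads of Suz12 per read of Eed went from 0.277 to 0.387, a shift of 1.40-fold (1.295 to 1.504).

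The remaining pairs were closer to even. Jarid2 against Mtf2, another accessory subunit of PRC2, shifted by 1.15-fold (1.09 to 1.22), and Mtf2 itself had 2901 and 3181 reads with a ratio of 1.23. Rnf2 against Ring1 had a shift of 1.06-fold (0.911 to 1.24), Cbx7 against Cbx2 of 0.980-fold (0.900 to 1.07) and Bmi1 against Pcgf2 of 0.817-fold (0.643 to 1.04), all with intervals across 1. For Cbx2, a second chromodomain subunit, the reads were 1219 and 1017.

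**Figure D4:**
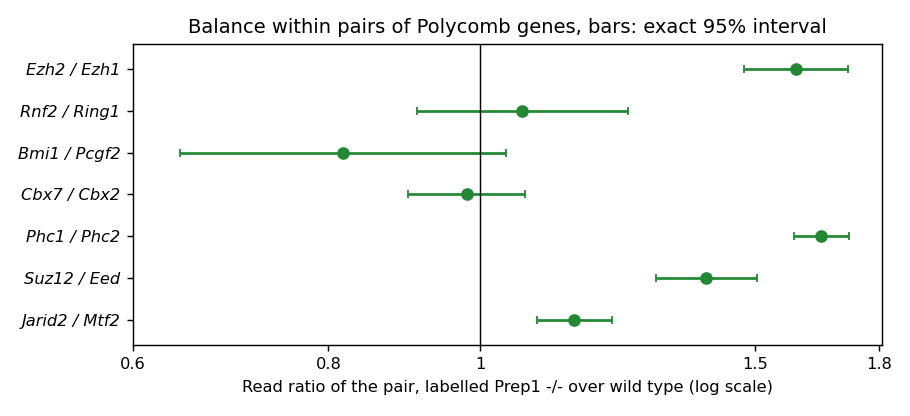
Read ratio of each of 7 pairs of Polycomb genes in the library labelled Prep1 -/- over that in wild type, on a log axis with exact 95% conditional intervals. The intervals of Phc1/Phc2 (1.65), Ezh2/Ezh1 (1.59), Suz12/Eed (1.40) and Jarid2/Mtf2 (1.15) lie above 1, and those of the other 3 pairs include 1.

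Each family was also dominated by 1 member in both libraries, and the dominant member was the same. Cbx7 made up 84.2% of the RPKM of 5 Polycomb Cbx genes in wild type and 85.1% in the library labelled Prep1 -/-. Phc1 made up 86.2% and 90.8% of the 3 Phc genes, and Rnf2 79.3% and 80.3% of the ligase pair. Among 6 Pcgf genes it was not Bmi1 but Pcgf2 that led, with 9991 and 10785 reads (143.0 and 172.6 RPKM) and 63.3% and 66.4% of the family. Bmi1 made up 0.516% and 0.443% of it. These shares are on the RPKM scale and depend on the gene length used.

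The 37 other genes listed for the Polycomb machinery, which cover the rest of PRC2, canonical and variant PRC1, the PR-DUB deubiquitinase and the histone H3 demethylases, had a median ratio of 1.04 (log2 0.06). Of the 35 expressed, 2 were lower and 0 higher, against the 13.3% and 6.91% of all genes. Phf1, an accessory subunit of PRC2, had 763 and 460 reads (14.03 and 9.47 RPKM) and a ratio of 0.675 (0.599 to 0.758), and it lies on chromosome 17 like Pknox1. Its ratio lay near the threshold, and with the libraries scaled by the median of all genes or by TMM 0 of the 35 were lower. Beside Phf1, the other 4 PRC2 accessory genes had intervals above 1, and the 5 had a median ratio of 1.20. The 9 other canonical PRC1 genes had a median of 0.899, with 4 intervals below 1 and 2 above.

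Finally, 56 genes listed as targets of Polycomb repression, developmental regulators and 1 cell cycle inhibitor, were followed. Polycomb occupancy was not measured in this series, so whether the complexes act on these genes in these cells was not tested. Their median ratio was 0.6004 (log2 -0.74), and 44 of 56 had a ratio below 1, where 58.6% of the expressed genes and 53.4% of detected genes under that level did. Of the 25 expressed, 14 were lower (56.0%) and 2 higher, against 13.3% and 6.91% of all expressed genes. Among genes with at least 250 reads the shares were 9.55% and 3.29%, so shallower genes were called more often. Most of the 14 lower target genes had fewer reads than that. No share at their depth was computed, so the 56.0% has no background of like depth beside it. The lowest of those past the threshold were Msx1, a homeobox gene of neural crest and limb, with 94 and 9 reads (1.60 and 0.188 RPKM) and a ratio of 0.118, and Cdx2, the trophectoderm regulator, with 186 and 36 reads and a ratio of 0.221. The highest were Neurog1, a proneural gene, with 30 and 105 reads and a ratio of 3.82, and Pax6, an eye and neural regulator, with 358 and 588 reads (0.939 and 1.72 RPKM) and a ratio of 1.83. Pax6 is called higher through its level in the library labelled Prep1 -/- and would not be with a filter on the wild type level. In the same way, Msx1, Cdx2 (2.89 and 0.640 RPKM) and others of the 14 are called lower through their wild type level alone. The count of 14 thus rests in part on that filter. Of the 25 expressed target genes, 16 had RPKM over 1 in both libraries. The median log2 ratio of the target genes was -0.20 with a pseudocount of 1 RPKM and -0.47 with 0.1 RPKM, and the count of lower genes was 34 without the RPKM filter and 3 with RPKM above 5. Many of these levels were low. Of the 56, 11 had under 20 reads in the libraries together, and genes with 0 reads in both receive a ratio of 1.12 from the authors' count plus 1.

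Marker genes of some other cell types went the same way as the target genes. Of 8 primitive endoderm markers, 7 had intervals below 1 and 1 above. Intervals lay below 1 for 36.3% of the expressed genes and for 41.6% of those with at least 250 reads. The 8 include genes with RPKM under 1 in both libraries, which these shares leave out. Of these markers 6 were expressed and 4 were lower, against 13.3% of the expressed genes. Their median ratio was 0.500. Their summed level was 441.6 and 378.5 RPKM, most of it from Sparc (347.3 and 327.8 RPKM, ratio 0.944). Of 5 trophectoderm markers, 4 were expressed and 3 were lower, against the same 13.3%, and the sum of the 5 was 101.2 and 62.96 RPKM.

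Among 10 ES cell markers, 8 had intervals above 1, 1 (Zfp42) below 1 and 1 across 1. Intervals lay above 1 for 23.4% of all genes with at least 250 reads. The median ratio of the ES cell markers was 1.24 and the sum was 1980 and 2277 RPKM. Most ES cell markers thus went the same way as Jarid2, Ezh2, Suz12 and Phc1, and 9 proliferation genes had a median ratio of 1.04 with 0 past a threshold. Fibroblast feeder markers were low, at a summed 24.8 and 30.4 RPKM over 6 genes, with 0 past a threshold, and of 4 neural ectoderm markers 1 was lower and 1 (Pax6) higher. Some primitive endoderm and trophectoderm markers and Pax6 are also on the target list, and with every gene of the marker lists left out of it 10 of 20 expressed target genes were lower and the median log2 ratio of the remaining 49 was -0.59. The part of these markers in the ratios of the Polycomb genes and their targets was not tested.

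**Figure D5:**
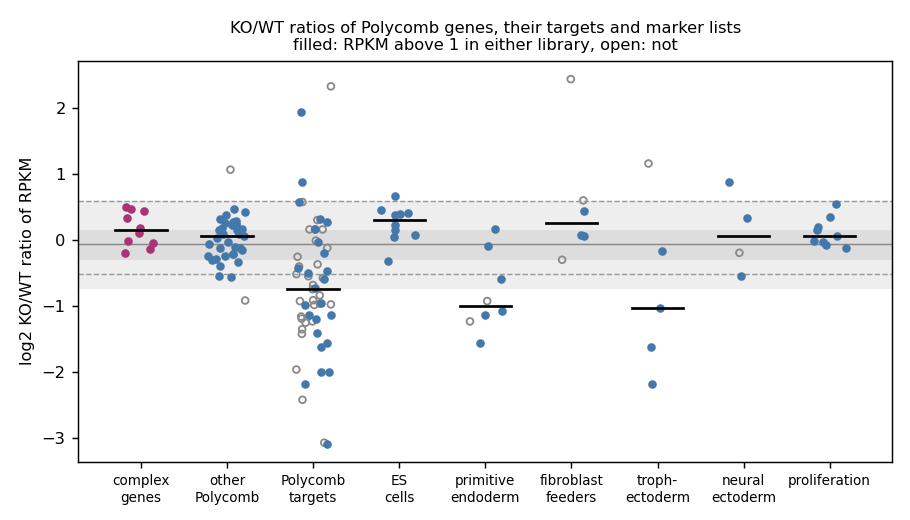
log2 KO/WT ratio of RPKM of each gene of the 10 Polycomb complex genes, 37 other Polycomb genes, 56 Polycomb targets and 6 marker lists, with filled points for genes with RPKM above 1 in either library, black bars for list medians, grey bands for the middle 50% and 90% of 13218 genes and dashed lines for the thresholds. The median of the complex genes is 0.14 and that of the targets -0.74, below the band of the middle 50%, or -0.20 with 1 added to both RPKM values.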

How the data were processed

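The 10 genes, the other lists, the pairs and the rule for named genes were chosen with earlier results of these data known. The authors sequenced mRNA as paired reads, assigned them to Ensembl genes on mm9 with RSEM and used DESeq, and deposited for each gene its read count, a whole number, and its RPKM. The deposited RPKM rests on the count plus 1, since the RPKM ratio was 1.12 times the ratio of counts plus 1 for every gene with finite values, and it was Inf for 85 genes, which were left out. RSEM shares reads that fit several genes, which can move reads between related genes. For ChIP-seq the authors aligned reads with BWA on mm9, called peaks with MACS against input DNA, 1 library each, and deposited a score per peak, its fold enrichment rounded to a whole number. Program versions are not given in the sources used here.

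KO/WT ratios are ratios of the deposited RPKM, with no pseudocount beyond the 1 read they hold. Their intervals are exact (Clopper-Pearson) 95% binomial intervals of the share of reads, level intervals are exact Poisson, and pair intervals are exact conditional. All cover counting error only, and reads are not independent molecules. With 1 library per genotype no p-value was computed. Annotation was GENCODE M1. The genes named are the 10, Pknox1, the partners of the pairs, other Polycomb genes past a threshold, and the 2 lowest and 2 highest target genes past a threshold with at least 20 reads. Plekhh3, Gm17629, Gm16706, Scml2, Sparc and the named ES cell markers were named after their values were seen. For 1 gene that the rule would name, the result is not reported here. The ratio and interval steps were tested on simulated data. Alternatives were other scalings, pseudocounts, filters, thresholds, start windows and motif stringency, and the exon-union lengths, the background of genes with at least 250 reads and the target list without markers were added after the data were seen. The tools were scipy 1.17.1, pandas 2.3.3, numpy 2.4.6 and matplotlib 3.10.9 under Python 3.11.15, and edgeR 4.0.16 under R 4.3.3 for TMM factors alone.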

Additional observations from a re-analysis of the deposited data

How the results depend on the processing

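No paired analysis was possible because each genotype has 1 library and the labels carry no replicate numbers. The counts of 0 lower and 0 higher among the 10 Polycomb complex genes held under every scaling, pseudocount, filter and threshold run, and their median log2 ratio stayed between 0.14 and 0.21. Under the scalings and pseudocounts the ratio of Ezh2 ran from 1.38 to 1.46, that of Jarid2 from 1.40 to 1.48 and that of Suz12 from 1.32 to 1.42. Over the 10 genes, 16 single ratios moved past their counting interval under these settings and 44 did not, and Eed and Bmi1 changed sides of 1 as described above. Of the 2 other Polycomb genes called lower, 1 was left with summed read counts, chromosome medians, a pseudocount of 1 or RPKM above 5, and 0 with median scaling, TMM, a threshold of 1/1.5 or thresholds of 0.5 and 2. Without the RPKM filter 1 other Polycomb gene (Scml2) was higher. The median log2 ratio of the target genes was -0.47 with a pseudocount of 0.1 and -0.20 with 1. Their count called lower went from 14 to 34 without the RPKM filter and to 3 with RPKM above 5, and their count called higher from 2 to 1 with a pseudocount of 1, RPKM above 5 or thresholds of 0.5 and 2. With chromosome medians divided out, the pair shifts were 1.08 for Cbx7/Cbx2, 1.54 for Phc1/Phc2 and 1.25 for Suz12/Eed. Genes with a start peak went from 1 to 2 with a window of 1000 bases on each side or any transcript start, which adds Jarid2, and the peaks with a decamer from 6 to 2 when it had to be exact. The cause of the other moves was not tested. Depth limits Bmi1 and Ring1 most, and the single library per genotype limits every ratio.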
